A study of Mus musculus with 6 samples.

Results

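The EGF receptor family and its ligands were followed in mouse embryonic fibroblasts that lacked or retained Lasp1. The members were chosen by name: the 4 receptor genes Egfr, Erbb2, Erbb3 and Erbb4, and the ligand genes Areg, Ereg, Hbegf, Nrg1, Tgfa and Btc. All probes with 1 of these symbols in the supplied probe annotation were taken, which gave 19 probes for 9 of the 10 genes, out of 19057 genes measured. Areg had no probe under its symbol there and was not analysed here. The compared groups were Lasp1-/- fibroblasts (Lasp1 knockout, 3 arrays) and Lasp1+/+ fibroblasts (wild type, 3 arrays), both of the C57Bl/6NCr strain and both cultured cells without a stated treatment. The labels do not say how Lasp1 was disrupted, at which passage the cells were taken, or whether the arrays of a genotype came from separate embryos or cultures, so p-values reflect the scatter among these arrays alone, and that scatter may be technical.

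The 4 receptors are transmembrane tyrosine kinases that signal as dimers. EGFR binds amphiregulin, epiregulin, HB-EGF, TGF-alpha and betacellulin, and neuregulins bind ERBB3 and ERBB4. ERBB2 binds no ligand and serves as the preferred partner of the others, and ERBB3 has little kinase activity of its own. The ligands are made as membrane proteins and are cut free by ADAM proteases. In fibroblasts, EGFR signalling through RAS, ERK and PI3K promotes division and migration, and it induces its own inhibitors.

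Egfr and Nrg1 rose in Lasp1 knockout fibroblasts, and no other member passed the test. Egfr was 1.57-fold higher in knockout cells at its brightest probe, and Nrg1, a ligand of ERBB3 and ERBB4, was 1.47-fold higher. Erbb2 and Hbegf were well above the array median in both genotypes and did not pass. Erbb3, Erbb4, Ereg, Tgfa and Btc lay close to the array median in all 6 arrays, where the light is mostly background, and the arrays give no usable size for them. Of 19057 genes, limma called 6.29% at an adjusted p under 0.05, and 2.2% in the upward and 4.09% in the downward direction. Among genes whose mean in knockout or wild type exceeded the median probe, 9.53% were called. All values below are linear intensities scaled by the authors so that each array had a median of 1000, and log2 differences are knockout minus wild type.

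**Figure D1:**
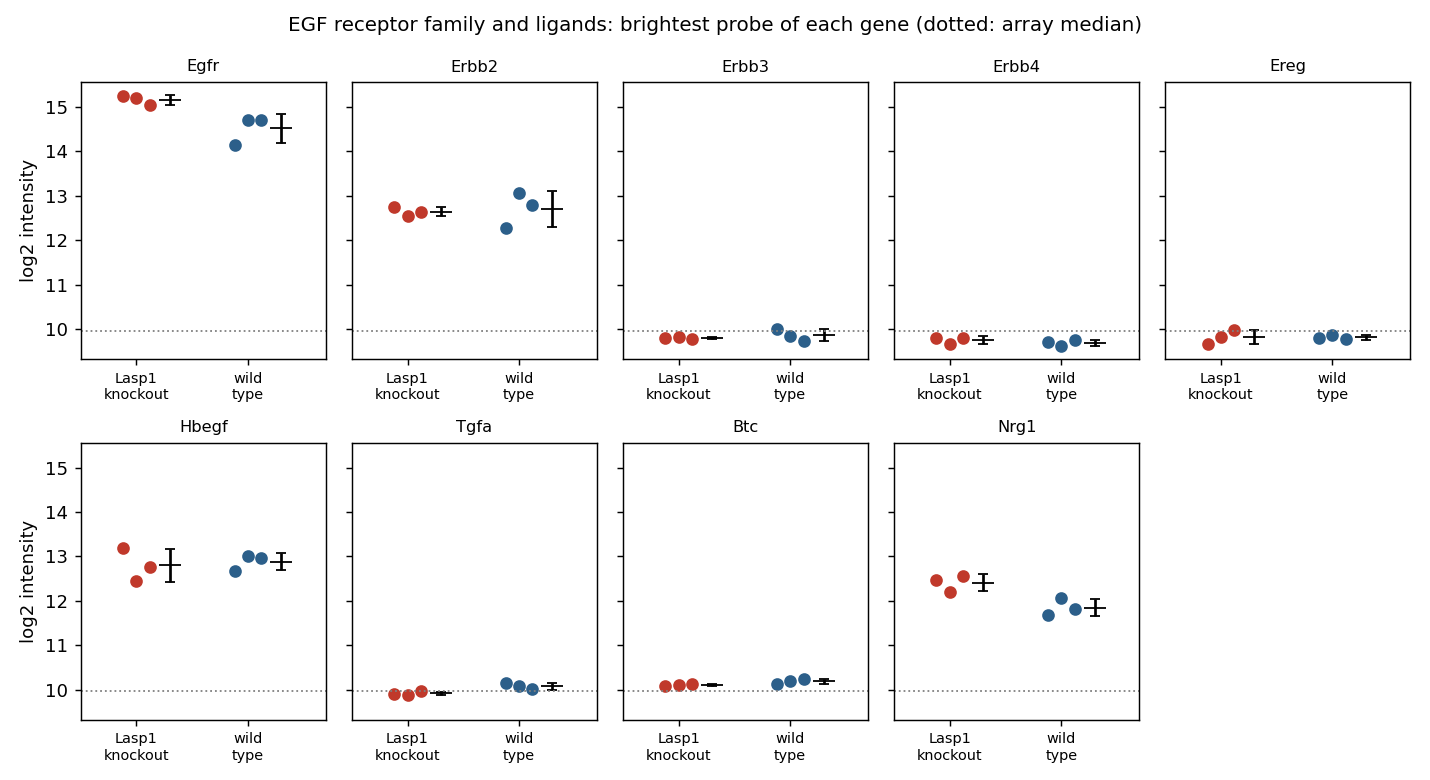
Log2 intensity (y axis) of the brightest probe of each of the 9 measured members in the 3 Lasp1 knockout arrays (red) and the 3 wild-type arrays (blue); black marks are the mean and SD (n = 3) and the dotted line is the array median of 1000. For Egfr and Nrg1 the knockout points all lie above the wild-type points, for Tgfa they all lie below them close to the dotted line, and for the other members the groups overlap.

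Lasp1 itself checked the labels. Its brightest probe read 50898 ± 1072 in knockout and 144104 ± 7634 in wild type (SD, n = 3 each). The difference was -1.50 ± 0.07 (SE), with a limma adjusted p of 1.18e-05. In the fit of all probes, its second probe (ILMN_2879745; 3097 in knockout, 12502 in wild type) differed by -2.03 ± 0.15 (SE, limma adjusted p = 0.000139). The third (ILMN_2596851; 923 and 1107) was near background and was not called (-0.26 ± 0.08 SE, limma adjusted p = 0.116). Knockout arrays thus kept a bright signal at the first probe, and where the probes lie relative to the disruption was not determined here. The upper quartile of the arrays ranged from 2018 to 2283 in knockout and from 2041 to 2330 in wild type. Fibroblast genes such as Vim (130208 in knockout, 148303 in wild type) and Col1a1 (227027 and 264623) were bright in both genotypes. Of 14 fibroblast markers 6 fell in knockout and none rose, against 4.09% lower and 2.2% higher over all genes. These were Col1a2 (-0.84), Lum (-0.80), Twist1 (-0.77), Pdgfrb (-0.75), Dcn (-0.64) and Thy1 (-0.60 on the log2 scale). The summed intensity of the 14 was 843135 to 901187 in knockout and 1033660 to 1201630 in wild type. Of 12 epithelial markers 3 fell (Krt14, Krt8 and Krt19) and none rose, with a summed intensity of 15205 to 16039 in knockout and 28121 to 32925 in wild type, while Epcam (809 and 868) and Cdh1 (1065 and 1037) stayed near the array median. Of 4 measured Schwann and neural crest markers, Sox10 and Ngfr fell, with sums of 6799 to 7455 in knockout and 9223 to 12480 in wild type. Single markers rose for macrophages (Lyz2, 1 of 8; sums 14084 to 14877 in knockout and 11118 to 12440 in wild type), endothelium (Emcn, 1 of 6; sums 8964 to 9639 and 8121 to 8670) and skeletal muscle (Acta1, 1 of 6; sums 21428 to 22551 and 11937 to 13631). Ptprc, Cdh5 and Myod1, other markers of those lists, stayed at or below 982 in both genotype means. Acta1 alone averaged 12873 in knockout and 4546 in wild type, and Krt14 alone 2565 and 15557. The differences in the muscle and epithelial sums thus rest largely on 1 gene each. Among brighter uncalled markers, Cd14 (2320 in knockout, 1823 in wild type) and Des (5280 and 4531) were higher in all knockout arrays. Of the epithelial list, the uncalled Krt18 (1570 in knockout, 1387 in wild type) and Cldn4 (1094 and 879) were also higher in all knockout arrays. Tek (1750 and 2147) was lower in all of them. The part of these shifts in the results below was not tested, and in bulk RNA fewer cells of a type and less RNA per cell cannot be told apart.

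Egfr was read by 6 probes. At the brightest (ILMN_2693922), the intensities were 38768, 37645 and 33637 in the knockout arrays, against 18043, 26695 and 26580 in the wild-type arrays. Every knockout array lay above every wild-type array, and wild type replicate 1 was the lowest of all. The log2 difference was 0.65 ± 0.15 (SE; 95% interval 0.32 to 0.98), with a limma adjusted p of 0.0318. The second probe (ILMN_1241496) read 34430, 37627 and 29847 in knockout and 18081, 22103 and 19968 in wild type. The genotypes again did not overlap, with less scatter in wild type and more in knockout than at the brightest probe (SD 3910 in knockout and 2012 in wild type, against 2697 and 4963). Its log2 difference was 0.76 ± 0.10 (SE), or 1.69-fold, and limma's adjusted p was 0.00372 in the fit of all 34885 probes.

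A pair of dimmer probes shared another RefSeq transcript of Egfr in the annotation. The first of them (ILMN_3128725) read 6989, 5976 and 7497 in knockout and 3678, 4786 and 4904 in wild type, a 1.54-fold difference (log2 0.62 ± 0.12 SE, limma adjusted p = 0.0233). The other (ILMN_3052260) read 6540, 5046 and 5846 in knockout and 3665, 4837 and 4084 in wild type, again without overlap, but its log2 difference of 0.47 ± 0.12 (SE) had a limma adjusted p of 0.0658. Egfr thus had 3 probes called higher, against 1.54% of all probes called in that direction. The remaining probes were dim. ILMN_2614432 shared its RefSeq transcript with the brightest probe in the annotation, but averaged 1536 ± 85.2 in knockout and 1380 ± 83.4 in wild type (SD, n = 3 each). Its log2 difference was 0.15 ± 0.08 (SE, limma adjusted p = 0.374). ILMN_2581001 averaged 887 ± 31.6 and 818 ± 52.2 (SD, n = 3 each), near background. All 6 probes had a higher knockout mean, and in 5 of them the knockout arrays lay entirely above the wild-type arrays, an arrangement found in 6.86% of all probes. The 6 probes read the same RNA samples and are not replicates of each other. Exact two-sided permutation tests gave p = 0.1 for each of those 5 probes, the smallest value that 3 arrays against 3 allow.

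The call at the brightest Egfr probe was near the threshold. It was lost without knockout replicate 1, 2 or 3 or wild type replicate 3 (limma adjusted p = 0.0814, 0.118, 0.0967 and 0.0696) and after normexp background correction (0.126), with log2 differences between 0.61 and 0.74 in these fits. The log2 difference was 0.46 without wild type replicate 1. The second probe kept its call whichever array was left out (limma adjusted p 0.000878 to 0.0305) and lost it after normexp correction (0.0687).

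**Figure D2:**
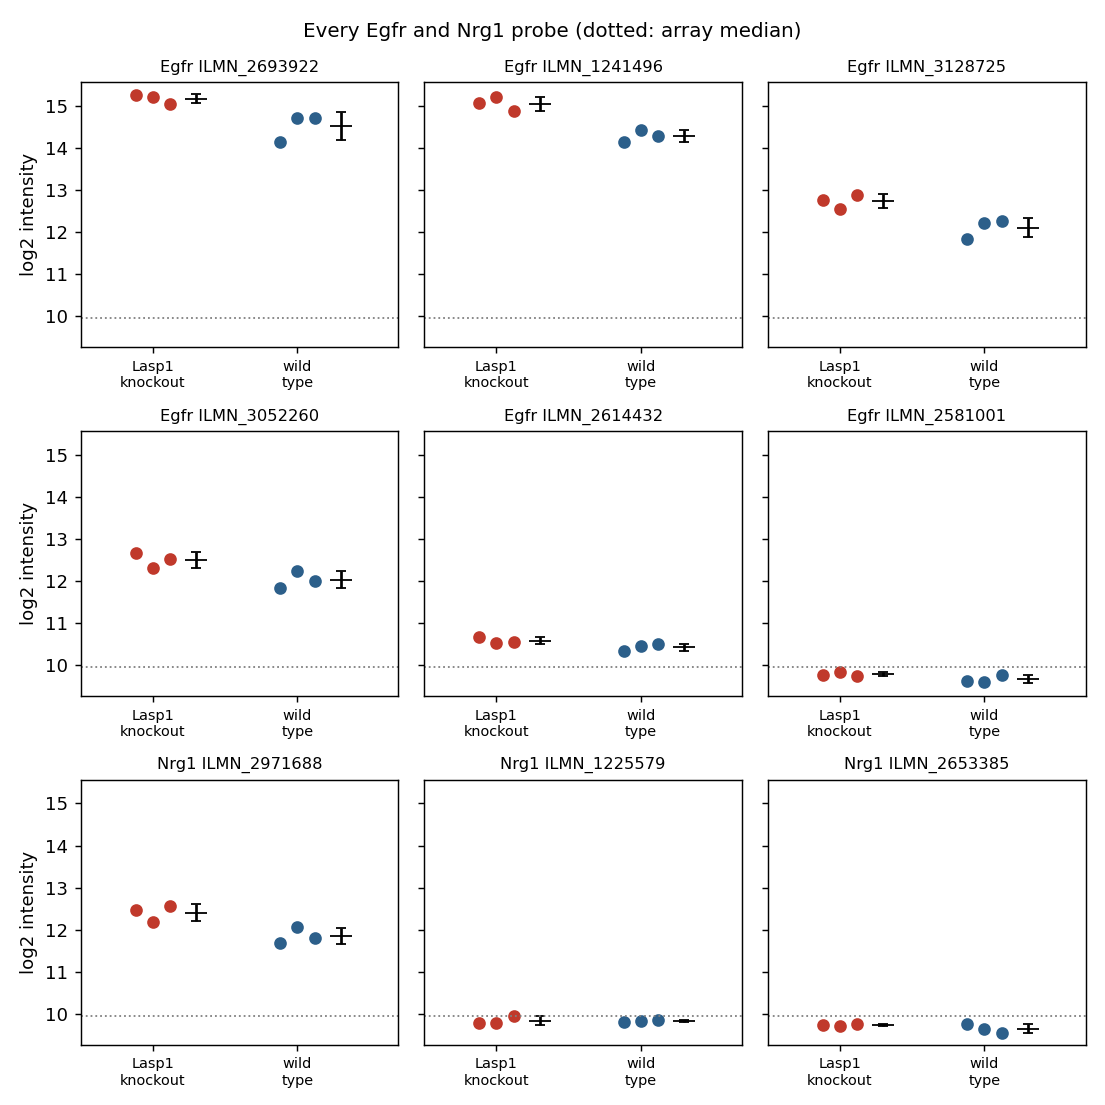
Log2 intensity (y axis) at each of the 6 Egfr probes and 3 Nrg1 probes in the Lasp1 knockout arrays (red) and wild-type arrays (blue), with the mean and SD (n = 3) in black and the array median of 1000 as a dotted line. Knockout points lie entirely above wild-type points in 5 Egfr probes and 1 Nrg1 probe; the other Nrg1 probes lie below the dotted line or on it.

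Because Egfr was the receptor that rose, the bases around its start site are shown, with those of Erbb2, the receptor that was measured above background and not called. Each stretch runs from 250 bases before the annotated start to 50 bases after it, from RefSeq on build GRCm38.p6. The Egfr window is chr11:16751953-16752252 on the plus strand and the Erbb2 window is chr11:98412234-98412533 on the plus strand. Capitals mark the GC box letters GGGCGG on either strand.
Egfr: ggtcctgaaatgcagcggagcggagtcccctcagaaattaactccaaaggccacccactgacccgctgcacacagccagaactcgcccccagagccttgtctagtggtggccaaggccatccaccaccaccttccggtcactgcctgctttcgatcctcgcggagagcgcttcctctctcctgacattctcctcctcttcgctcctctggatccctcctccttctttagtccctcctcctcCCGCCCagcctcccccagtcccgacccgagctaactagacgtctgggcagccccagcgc
Erbb2: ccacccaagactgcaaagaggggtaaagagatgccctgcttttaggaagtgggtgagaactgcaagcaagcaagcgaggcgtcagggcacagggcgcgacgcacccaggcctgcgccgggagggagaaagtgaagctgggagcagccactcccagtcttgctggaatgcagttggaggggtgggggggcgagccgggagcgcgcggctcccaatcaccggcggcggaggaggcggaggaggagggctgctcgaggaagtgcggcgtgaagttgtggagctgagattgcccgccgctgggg
The Egfr window held 1 GC box match, starting at base 242 of the window and read on the minus strand, and the Erbb2 window held 0. GC box letters occurred in 35.7% of 32851 promoter windows of the same length. Neither window held TATAAA (13.6% of all windows) or the AP-1 letters TGANTCA (7.81%), and Erbb2 held CCAAT once (37.4%). The share of G and C was 62.3% in Egfr and 66.0% in Erbb2, against a median of 52.7% over all windows. These are matches of letters, both strands were searched, and binding was not measured.

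Erbb2 encodes the receptor that binds no ligand. Its 1 probe read 6870, 5970 and 6369 in knockout and 4948, 8560 and 7077 in wild type, so the knockout values lay inside the wild-type range. The log2 difference was -0.07 ± 0.17 (SE), and its 95% interval, -0.45 to 0.32, leaves room for changes in either direction (limma adjusted p = 0.91). The wild-type values followed the upper quartiles of their arrays (2041, 2330 and 2112 in replicates 1 to 3). After quantile normalization the log2 difference was 0.03. Erbb2 and Lasp1 lie on chromosome 11 with 16 protein-coding genes between them in the RefSeq gene table, so Erbb2 is a close neighbour of the disrupted gene. Egfr is on the same chromosome with 982 protein-coding genes between it and Lasp1.

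Erbb3, the neuregulin receptor with weak kinase activity, read 887, 903 and 878 in knockout and 1029, 925 and 848 in wild type. Erbb4, the other neuregulin receptor, read 894, 807 and 895 in knockout and 833, 781 and 859 in wild type at its brighter probe (ILMN_2772217). Apart from Erbb3 in wild type replicate 1, these values were under the array median, and the groups overlapped. The limma adjusted p was 0.788 for Erbb3 and 0.751 for Erbb4. At the other Erbb4 probe (ILMN_2699974) the means were 726 ± 54.2 in knockout and 777 ± 72.1 in wild type (SD, n = 3 each).

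Nrg1, which encodes neuregulin 1, was the ligand that rose. Its brightest probe (ILMN_2971688) read 5706, 4677 and 6037 in knockout and 3281, 4266 and 3590 in wild type. The groups did not overlap, and the closest arrays were knockout replicate 2 and wild type replicate 2. The means were 5473 ± 710 and 3712 ± 504 (SD, n = 3 each), a log2 difference of 0.56 ± 0.12 (SE; 95% interval 0.28 to 0.84) with a limma adjusted p of 0.0281. The other 2 probes gave no signal above the array median: ILMN_1225579 averaged 923 ± 66.5 in knockout and 918 ± 13.2 in wild type, and ILMN_2653385 averaged 854 ± 14.8 and 809 ± 55.4 (SD, n = 3 each). Nrg1 makes several isoforms from different promoters. The annotation assigns all 3 probes to the same RefSeq transcript, and which isoforms they detect was not determined here. The call was lost without knockout replicate 1 or 3 or wild type replicate 3 (limma adjusted p = 0.0739, 0.149 and 0.138) and after normexp correction (0.116). The mean over its 3 probes gave a log2 difference of 0.22, with an adjusted p of 0.129.

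Hbegf encodes heparin-binding EGF-like growth factor, a ligand of EGFR that is kept near the cell by heparan sulfate. Its bright probe (ILMN_2698449) read 9362, 5593 and 6983 in knockout and 6504, 8310 and 7993 in wild type. Knockout replicate 1 was the highest and knockout replicate 2 the lowest of the 6 arrays, and the same arrays had the highest and lowest upper quartile within knockout (2283 and 2018). The log2 difference was -0.08 ± 0.17 (SE; 95% interval -0.47 to 0.31, limma adjusted p = 0.891). The other Hbegf probe (ILMN_2569725) stayed near background, with 907 ± 58.0 in knockout and 924 ± 82.7 in wild type (SD, n = 3 each).

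The remaining EGFR ligands were close to the array median. Tgfa, which encodes TGF-alpha, read 963, 943 and 1000 in knockout and 1133, 1079 and 1030 in wild type. All knockout arrays were below all wild-type arrays, and the difference did not pass (-0.16 ± 0.07 SE, limma adjusted p = 0.29). Btc, which encodes betacellulin, read 1088, 1096 and 1125 in knockout and 1118, 1173 and 1212 in wild type (adjusted p = 0.641). Ereg, which encodes epiregulin, read 806, 910 and 1007 in knockout and 887, 940 and 878 in wild type at its brighter probe (adjusted p = 0.993), and its other probe (ILMN_1219065) averaged 833 ± 30.2 and 797 ± 35.8 (SD, n = 3 each). Ereg, Areg and Btc are consecutive protein-coding genes on chromosome 5. Counted over the 9 measured members, the groups were separate in 3 (Egfr and Nrg1 higher, Tgfa lower), or 33.3%, against 21.3% of all genes. The members too were chosen with earlier results of these data known, so this share is descriptive.

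Other genes of the pathway were taken from 5 lists by role, 89 genes of which 79 were measured. Of these, 7 rose and 2 fell, and 70 did not pass. The called share was 11.4%, against 6.29% of all genes. Among the 68 pathway genes above the median probe in knockout or wild type it was 13.2%, against 9.53% of all such genes. The lists were chosen with earlier results of these data known, so these shares describe the lists and test nothing. The median log2 difference of the 79 genes was 0.01, against -0.02 over all genes. The genes that rose most were Errfi1, an inhibitor of the EGFR kinase that the receptor's own signalling induces, and Phlda1, which growth factors induce through ERK. EGFR signalling was not measured, and 19 of 23 measured negative regulators and turnover genes and 14 of 17 growth factor-induced genes did not pass.

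**Figure D3:**
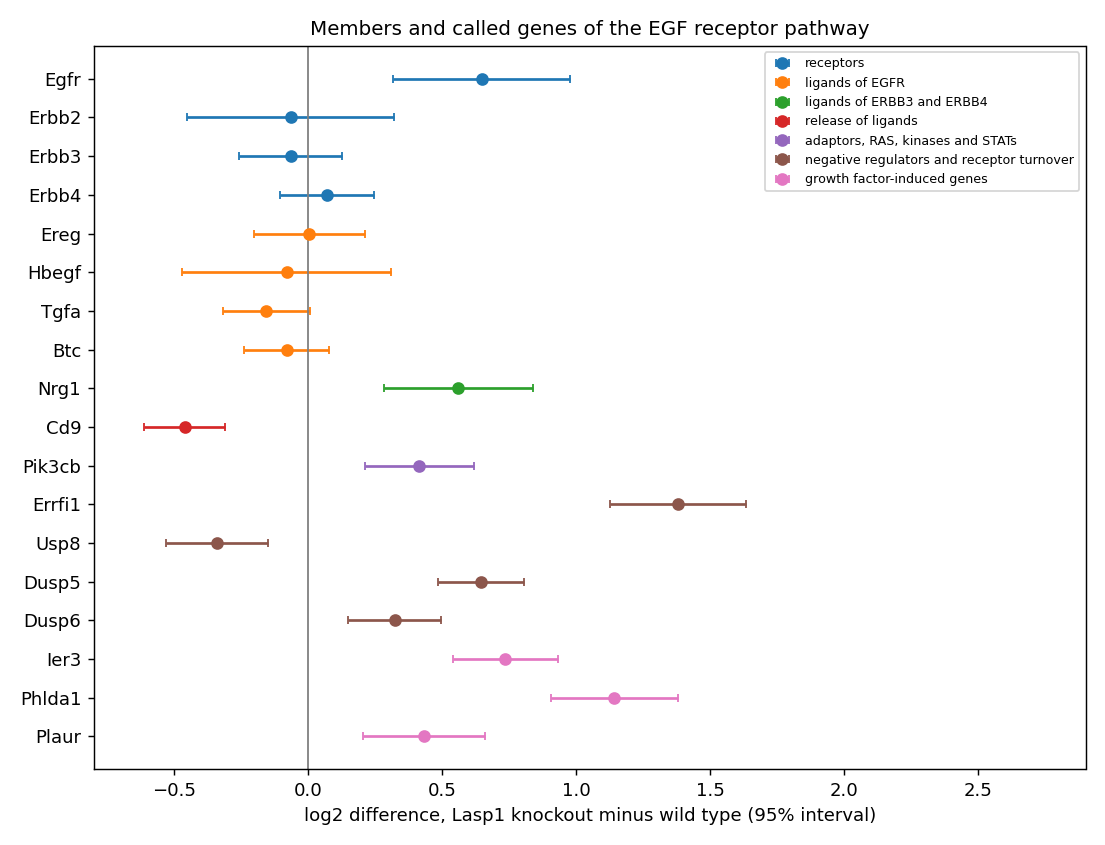
Log2 difference, Lasp1 knockout minus wild type (x axis), with its 95% interval from limma, for the 9 measured members and the 9 called genes of the pathway lists, coloured by role. Errfi1 (1.38) and Phlda1 (1.14) stand furthest to the right, Egfr and Nrg1 lie near Dusp5 (0.64), and Cd9 (-0.46) and Usp8 (-0.34) lie to the left of 0.

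Among 23 measured negative regulators and genes of receptor turnover, 3 rose and 1 fell, with a median log2 difference of -0.03. The shares over all genes were 2.2% higher and 4.09% lower. Errfi1 read 57118, 44558 and 60029 in knockout and 20391, 19695 and 21625 in wild type. Every knockout array was far above every wild-type array, and the gene was 2.60-fold higher (1.38 ± 0.11 SE, limma adjusted p = 0.000182). Dusp5, a nuclear phosphatase that inactivates ERK, read 4329, 3924 and 4099 in knockout and 2609, 2669 and 2622 in wild type (0.64 ± 0.07 SE, adjusted p = 0.000835). Dusp6, its cytoplasmic counterpart, read 25309, 26657 and 25936 in knockout and 20448, 22371 and 19583 in wild type (0.32 ± 0.08 SE, adjusted p = 0.0395). Usp8, a deubiquitinase that acts on endocytosed receptors, fell to 2205 ± 155 in knockout against 2791 ± 192 in wild type (SD, n = 3 each; limma adjusted p = 0.0483). In the fit of all probes, 1 of the 3 Dusp6 probes and 0 of the 3 Usp8 probes were called, with 1 sign at all probes of each gene. Rasa1, a GTPase-activating protein for RAS, was higher in all knockout arrays without passing (0.18 ± 0.07 SE, adjusted p = 0.224). Lrig3, of the LRIG family of receptor regulators, had a value of -0.16 ± 0.17 (SE, adjusted p = 0.726), and 1 of its 3 probes had that sign.

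Among 17 growth factor-induced genes, 3 rose and none fell, with a median log2 difference of 0.11. Of all genes, 2.2% were called higher and 4.09% lower. Phlda1 read 22410, 17596 and 20187 in knockout and 8200, 9700 and 9317 in wild type, a 2.21-fold difference (1.14 ± 0.11 SE, limma adjusted p = 0.000339). Ier3, an immediate early gene linked to cell survival, read 32142, 28344 and 31773 in knockout and 17907, 20128 and 17402 in wild type (0.74 ± 0.09 SE, adjusted p = 0.00125). In both genes the genotypes did not overlap. Plaur, the urokinase receptor, averaged 4006 ± 482 in knockout and 2960 ± 221 in wild type (SD, n = 3 each; 0.43 ± 0.10 SE, limma adjusted p = 0.0364). The brightest genes of the list that did not pass were Ccnd1, which encodes cyclin D1 (-0.01 ± 0.11 SE, adjusted p = 0.978), and Egr1, an immediate early transcription factor (0.27 ± 0.14 SE, adjusted p = 0.368).

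Among 24 measured adaptors, RAS proteins, kinases and STATs, 1 rose and none fell, with a median of 0.01. Limma called 2.2% of all genes higher and 4.09% lower. Pik3cb, a catalytic subunit of PI3K, read 3214, 3093 and 2640 in knockout and 2226, 2318 and 2147 in wild type (0.41 ± 0.09 SE, limma adjusted p = 0.0259). Shc1, an adaptor that docks on activated receptors, gave 0.01 ± 0.08 (SE, adjusted p = 0.968), and Ptpn11, which encodes the phosphatase SHP2, gave 0.14 ± 0.11 (SE, adjusted p = 0.594). These were the brightest genes of that list that did not pass. For each of these 2 genes, 1 of 4 probes had that sign.

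Among 11 genes of ligand release, 1 fell and none rose, with a median of -0.07. The shares called over all genes were 4.09% lower and 2.2% higher. Cd9, a tetraspanin that associates with the HB-EGF precursor, read 21604, 21825 and 21977 in knockout and 29341, 30250 and 30500 in wild type. Replicates differed little within each genotype, and Cd9 was 1.38-fold lower in knockout (-0.46 ± 0.07 SE, limma adjusted p = 0.00364). Rhbdf1, an inactive rhomboid that helps the protease ADAM17 to mature, gave -0.06 ± 0.10 (SE, adjusted p = 0.865), and the protease gene Adam15 gave -0.13 ± 0.13 (SE, adjusted p = 0.687). Of the 4 other EGF-type ligands measured (Egf, Epgn, Nrg3 and Nrg4), none passed, and their median was 0.02. Egf averaged 1109 ± 17.6 in knockout and 1096 ± 84.3 in wild type, and Epgn, which encodes epigen, averaged 1104 ± 9.11 and 1101 ± 50.2 (SD, n = 3 each), both close to the array median.

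Among the 9 called pathway genes, Errfi1, Dusp5, Phlda1 and Ier3 kept their call in all 13 alternative fits. The calls of Usp8, Dusp6, Plaur and Pik3cb were lost in at least 5 of the fits (adjusted p up to 0.207, 0.307, 0.175 and 0.134), and that of Cd9 was lost after normexp correction (0.125).

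**Figure D4:**
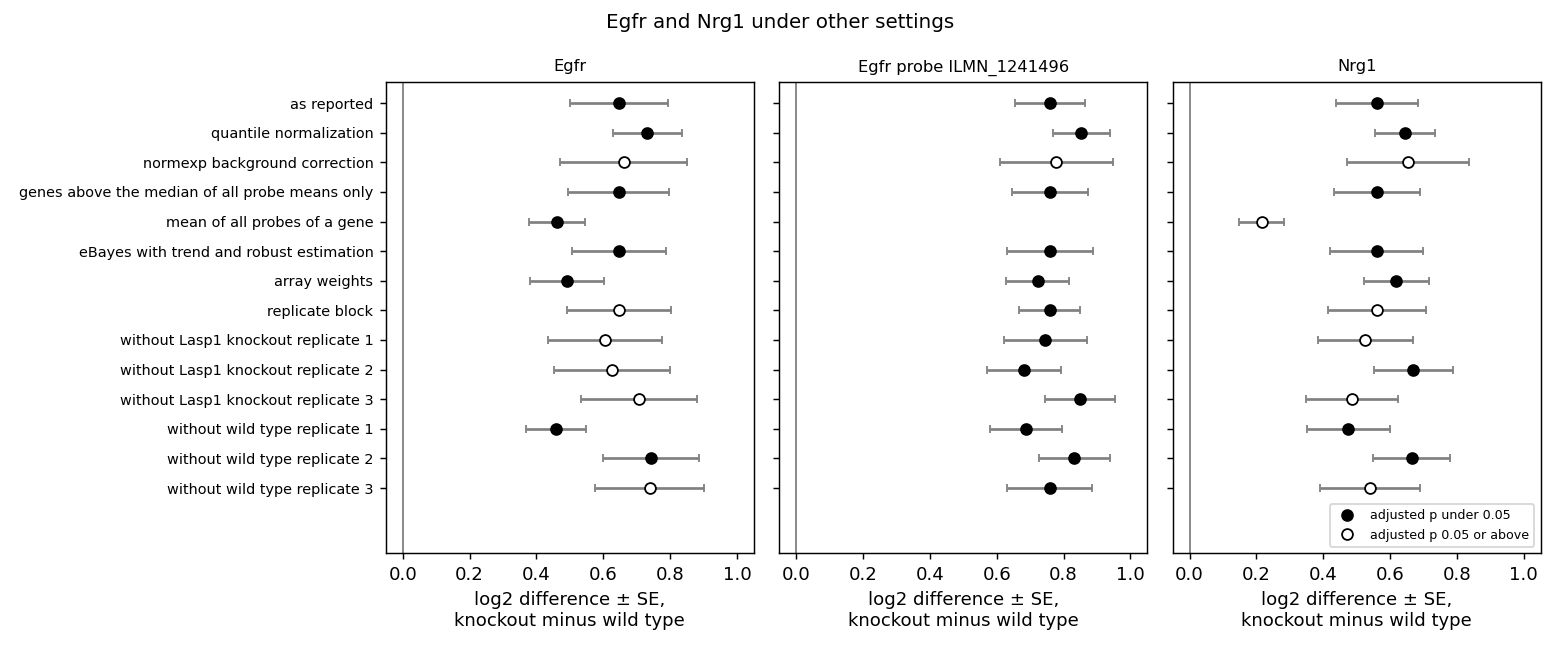
Log2 difference, Lasp1 knockout minus wild type, with its SE (x axis) for Egfr at its brightest probe, Egfr at its second probe and Nrg1, under each fit (rows); filled points have a limma adjusted p under 0.05 and open points do not, and an absent point means that the setting does not apply to a single probe. All points lie to the right of 0, from 0.46 to 0.74 for the brightest Egfr probe and from 0.22 to 0.67 for Nrg1.

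Genes were ranked by Pearson's correlation of their log2 intensity with that of each called member over the 6 arrays. The ranking covered 11603 genes brighter than the median probe, with gene-model symbols left out. Most like Egfr were Cyp2f2 (r = 0.996), Prmt2 (0.992) and Mt1 (0.992). Most like Nrg1 were Septin7 (0.995), H3c6 (0.992) and Map3k8 (0.990). Cyp2f2, a cytochrome P450, averaged 2225 in knockout and 1669 in wild type, and Map3k8, a kinase that activates MEK, averaged 3856 and 2875, and limma called both (adjusted p = 0.0366 and 0.0242). H3c6, a histone H3 gene, averaged 7577 and 5762 and was called (0.0395), whereas Prmt2, Mt1 and Septin7 were not (0.246, 0.152 and 0.095). Septin7 averaged 1189 in knockout and 950 in wild type, close to the array median. The ranking covers both the genotype difference and the scatter within genotypes, and it describes likeness only.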

How the data were processed

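Per the labels' protocols, biotin-labelled cRNA from 6 samples was used on Illumina arrays. The authors deposited linear probe intensities for 45281 probes. Each array has a median of 1000, and the lowest value is 593, so background light had not been subtracted to 0. For the scanner software and background handling, the sources used here give nothing. Arrays give no counts, and their number limits the precision.

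Probes with 1 gene symbol in the supplied annotation (34885; 18 had several and 10378 none) were used, and each gene was read at its brightest probe on average (19057 genes). Log2 intensities entered limma 3.58.1 (R 4.3.3; lmFit, eBayes, genotype only, 4 residual and 5.12 prior degrees of freedom), over genes and again over all probes, with Benjamini-Hochberg adjustment and a threshold of 0.05. The fit was tested on simulated data. Alternatives were quantile normalization, normexp with an offset of 50, a filter on dim genes, probe means, array weights, a trended and robust eBayes (statmod 1.5.0), a replicate block and leaving out each array. Named were all members, the called pathway genes, the 2 brightest uncalled genes of each list and the 3 genes most like each called member. Members and lists were chosen with earlier results of these data known.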

Additional observations from a re-analysis of the deposited data

How the results depend on the processing

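Precision was limited by 3 arrays a genotype, and dim genes were limited by background light, which compresses their differences. Of 19057 genes, limma called 1199 (419 higher and 780 lower in knockout), against 2101 after quantile normalization (1015 and 1086), 538 after normexp correction, 3281 with array weights, 411 with the replicate block and 463 to 1594 when an array was left out. Of the family, 2 members were called, against 0 after normexp correction, 1 with probe means (Egfr), 0 with the replicate block and 0 to 2 when an array was left out: 0 without knockout replicate 1, knockout replicate 3 or wild type replicate 3, and 1 (Nrg1) without knockout replicate 2. Of the pathway genes 9 were called, against 15 after quantile normalization, 4 after normexp correction, 16 with array weights, 5 with the replicate block and 5 to 11 when an array was left out. The causes were not tested. Egfr and Nrg1 kept their sign in all 13 alternatives. The labels do not say whether same-numbered arrays were paired, and 3 arrays a genotype are too few to decide it. Deviations of same-numbered arrays from the genotype means correlated at -0.42, -0.34 and 0.22. Across numbers, knockout replicate 1 with wild type replicate 2 gave 0.47, and knockout replicate 2 with wild type replicate 1 gave 0.40. Replicates 1 and 2 thus did not correlate best with their own number. With the block the adjusted p was 0.127 for Egfr and 0.156 for Nrg1.

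Of the genes named, no called one changed sign, and some uncalled ones did. The reversed values were 0.035 for Erbb2, 0.022 for Hbegf, 0.052 for Rhbdf1 and 0.022 for Ccnd1 after quantile normalization, 0.017 for Erbb3, -0.034 for Epgn and -0.026 for Egf with array weights, -0.014 for Erbb4, -0.083 for Epgn, -0.011 for Shc1, -0.054 for Ptpn11 and 0.10 for Lrig3 with probe means, and -0.046 for Ereg and -0.0017 for Epgn after normexp correction. With an array left out the values ran from -0.28 to 0.11 for Erbb2, -0.13 to 0.0062 for Erbb3, -0.074 to 0.087 for Ereg, -0.27 to 0.097 for Hbegf, -0.030 to 0.035 for Epgn, -0.046 to 0.060 for Egf, -0.15 to 0.033 for Rhbdf1, -0.037 to 0.057 for Shc1, -0.32 to 0.023 for Lrig3 and -0.12 to 0.052 for Ccnd1.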
